A study of Mus musculus with 4 samples.

Results

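The genes described here encode the nuclear subunits of the 5 respiratory chain complexes, in tibialis anterior muscle of dystrophic mice with and without matrix metalloproteinase-2. They were picked by symbol: those starting Nduf followed by a, b, c, s or v and a number (complex I), the genes Sdha to Sdhd (complex II), symbols starting Uqcr (complex III), Cox4 to Cox8 (complex IV) and Atp5 (complex V, the ATP synthase). This gave 81 of the 18194 genes that had a probe set of their own on the array, represented by 164 probe sets. Complex I had 35 genes, complex II 4, complex III 8, complex IV 17 and complex V 17. Of these, 79 had a signal above the floor on at least 1 array, among 12782 such genes in all. The floor was the median signal of all probe sets, 17.4. The other 2, Ndufb4 and Cox7b2, a testis form of a complex IV subunit, were at the floor on every array and had no measured difference. Each had 1 probe set of its own, so an absent transcript and a probe set that misses it cannot be told apart. Ndufa11 and Ndufs6 matched only probe sets shared with other genes and are not included.

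The respiratory chain sits in the inner mitochondrial membrane. Complexes I and II take electrons from NADH and from succinate, complex III passes them through cytochrome c to complex IV, which reduces oxygen, and complex V uses the proton gradient made by complexes I, III and IV to make ATP. Complex I, III, IV and V mix subunits encoded in the nucleus with subunits encoded in mitochondrial DNA, while complex II is encoded in the nucleus alone. Several complex IV subunits exist in a heart and muscle form and in a form found in most tissues. The tibialis anterior of the mouse is a mainly fast muscle, and the mdx mouse lacks dystrophin in it and goes through waves of fibre loss and regeneration.

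The study hybridised total RNA to 4 arrays of the type Mouse Genome 430 2.0 (Affymetrix), and each group had 1: mdx mice at 1 month, mdx mice at 3 months, mdx/MMP-2-/- mice at 1 month and mdx/MMP-2-/- mice at 3 months. The labels give the strain C57BL/6J for each. They name both genotypes as mdx, so both carry the dystrophin mutation and no mouse with normal dystrophin is among them. How many animals went into each array and whether the RNA was pooled is not stated in the labels. With 1 array a group, the differences between arrays carry no replicate error, and none of them could be tested by itself. Signals below are on a common scale after quantile normalization, a difference is a log2 difference of such signals, and a difference is counted from a size of 0.32 on the log2 scale, called the counting size below.

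The Mmp2 probe set read 974 in mdx and 20.8 in mdx/MMP-2-/- at 1 month, and 834 and 38.4 at 3 months, lower in mdx/MMP-2-/- at both ages as the labels have it. The tissue label was checked on 10 muscle fibre markers, all above the floor, whose summed signal lay between 104190 and 108367 on the 4 arrays. The heart markers Tnni3 and Myl7 and the brown fat marker Ucp1 were at the floor on every array. The heart markers Myh6 and Nppa were above it on at least 1 array but dim, with summed signals of 39.7 to 50.8. The brown fat markers Cidea and Dio2 were also above it, summing to 166 to 189. Between genotypes at 1 month Cidea was 2.13-fold higher in mdx/MMP-2-/- and Dio2 1.11-fold lower. The ratio of 3′ to 5′ signal for Actb was 1.05 to 1.19 on the arrays at 1 month and 2.09 to 2.36 on those at 3 months, so it moved with age, while that of Gapdh stayed between 0.85 and 0.94. Before scaling, the array of mdx/MMP-2-/- at 3 months had a trimmed mean of 124 and the other 3 lay between 91.3 and 98.4.

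The members were among the brightest genes of this muscle. Of the 79, 72 had a mean signal at or above the 90th percentile of the 12782 genes and 32 at or above the 99th. Uqcrb, a small subunit of complex III, read 14717 in mdx and 14159 in mdx/MMP-2-/- at 1 month, and 14485 and 15431 at 3 months; the last was the highest value of any gene. The 7 members below the 90th percentile were Cox4i2, Cox6b2, Cox7c, Cox8a, Cox8c, Ndufa4l2 and Ndufb1. Their differences rest on low signals: all but Cox8a stayed at or below 104. A low signal is that of the chosen probe set, and whether the probe set reads its transcript well was not tested.

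On the quantile-scaled signals the members varied little among the 4 arrays. For the 77 that were above the floor on all 4, the median ratio of the highest to the lowest signal was 1.15. It was 1.36 for all genes and 1.22 for 540 other bright genes. These 540 had a mean log2 signal at or above the 10th percentile of the members. That is a lower limit only, so they were not matched to the members in brightness. The gap between highest and lowest was under 0.32 on the log2 scale for 61 of the 77 (79.2%), against 31.3% of all genes and 56.9% of the bright ones. The widest was that of Ndufb1, 1.92. Where they differed, mdx at 3 months most often read highest: it was the top array for 48 of the 77 and the bottom array for 3, while over all genes it was the top array for 27.0% and the bottom array for 26.5%. The members' share of the summed signal of all genes was 8.77% there, 8.42% in mdx at 1 month, and 8.34% and 8.29% in mdx/MMP-2-/- at 1 and 3 months. These ranges, top arrays and shares are given for quantile scaling only. With median scaling more members reached 0.32, 18 with age in mdx and 10 between genotypes at 3 months. In a whole muscle, fewer fibres and less RNA per fibre cannot be told apart.

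**Figure D1:**
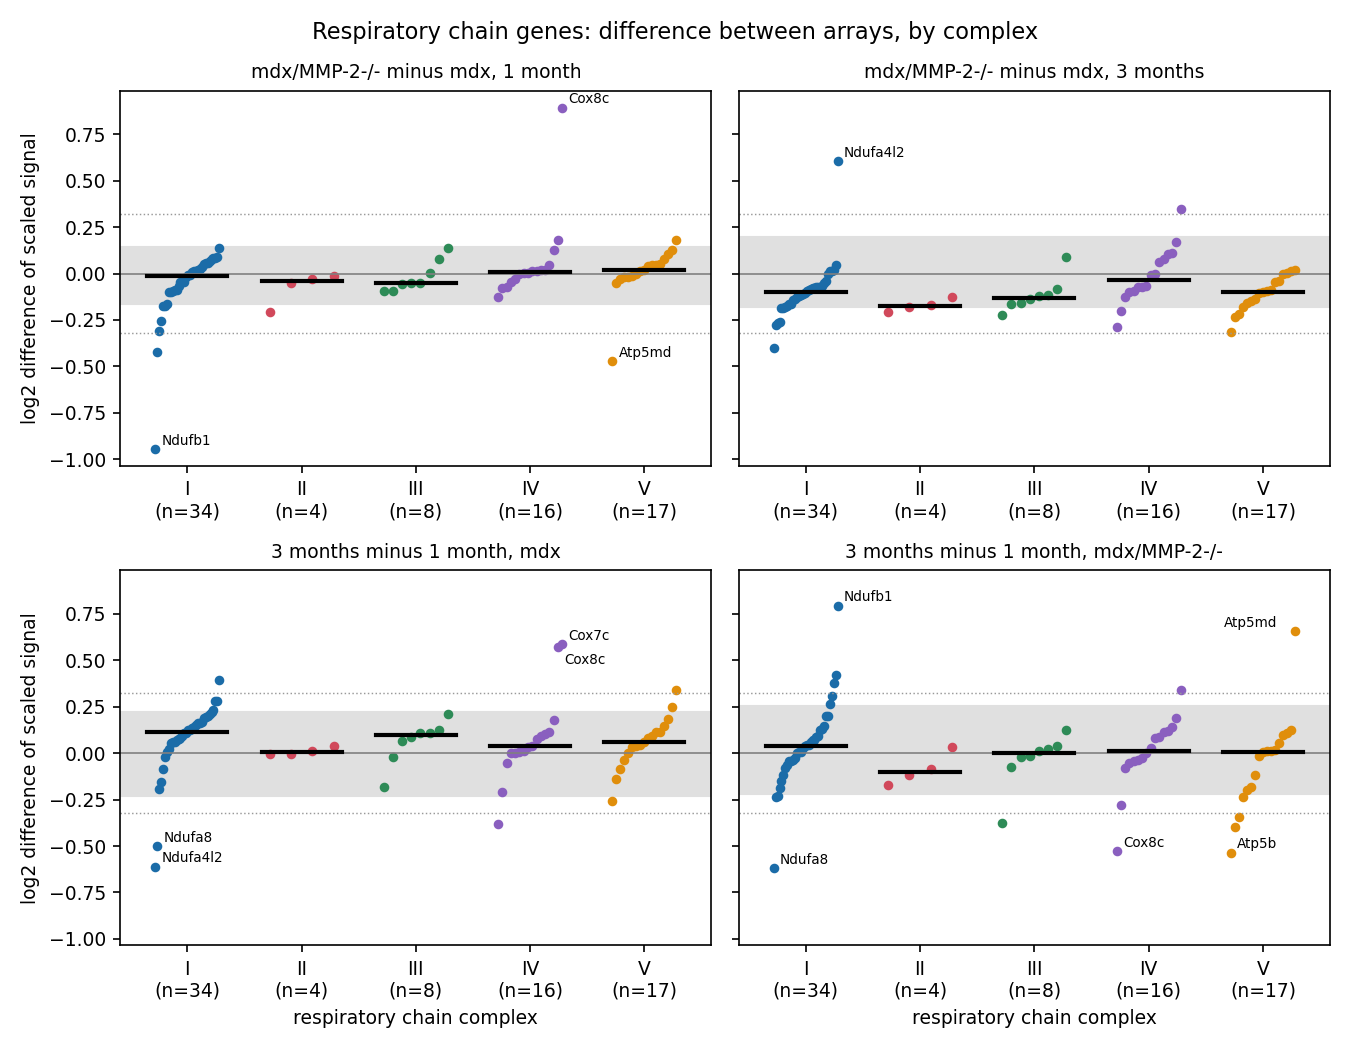
Log2 difference of scaled signal for each of the 79 members (points, sorted within a complex), in 4 panels for the 4 differences between 2 arrays. Black bars are medians of a complex, the grey band spans the middle 50% of all 12782 genes and dotted lines mark differences of 0.32 in size. Most points lie inside the band, and at 3 months the medians of all 5 complexes lie below 0, from -0.17 in complex II to -0.04 in complex IV.

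At 1 month the 2 genotypes read alike in most of these genes. The median log2 difference, mdx/MMP-2-/- minus mdx, was 0.00 over the 79, with 38 above 0 and 40 below. Above 0 lay 46.7% of all genes and 46.5% of the bright genes that are no members, and below 0 lay 48.4% and 51.9%. Only 4 members reached the counting size in either direction (all genes: 23.0%; bright genes: 2.22%). At 1.5-fold there were 2 (7.10% of all genes) and at 2-fold none (1.18%). The medians by complex lay between -0.05 in complex III and 0.02 in complex V. The split depended on the scaling: relative to all genes 53 of the 79 were lower with median scaling, 30 with cyclic loess and 45 on the deposited signals.

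Of those 4, Atp5md alone was bright. It encodes a small membrane subunit of the ATP synthase. Its signal was 4350.1 in mdx/MMP-2-/- and 6029.9 in mdx, 1.39-fold lower, and the lowest of its 4 readings. The other 3 were dim. Ndufb1, an accessory subunit of complex I, read 52.3 against 101 (1.92-fold lower), and Ndufa4l2, a paralogue of Ndufa4, 77.2 against 104 (1.34-fold lower). Cox8c, a testis form of the smallest complex IV subunit, read 90.7 against 48.8 (1.86-fold higher). All 4 Sdh genes were lower in mdx/MMP-2-/-, from -0.01 for Sdhc to -0.20 for Sdha.

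At 3 months the members were lower in mdx/MMP-2-/- than in mdx, by a small amount. The median was -0.10, a 1.07-fold lower signal, with 62 members below 0 and 15 above. Below 0 lay 48.1% of all genes and 55.4% of the bright genes that are no members, whose median was -0.02, and above 0 lay 47.6% and 43.3%. Only 3 members reached the counting size (all genes: 28.5%; bright genes: 11.3%), 1 reached 1.5-fold (9.42% of all genes) and none 2-fold (1.60%). By complex, the median was -0.10 in complex I (29 of 34 lower), -0.17 in complex II (4 of 4), -0.13 in complex III (7 of 8), -0.04 in complex IV (9 of 16) and -0.10 in complex V (13 of 17). Relative to the median of all genes the shift stayed below 0 under each other scaling, at -0.27 with median scaling (73 of 79 lower), -0.15 with cyclic loess (72) and -0.26 on the deposited signals (74). The deposited signals themselves, with no scaling, gave a member median of 0.15, while the median of all genes on them was 0.41. Other bright genes shared a part of this: relative to all genes the 540 had medians of -0.13, -0.03 and -0.11 under the same 3 scalings. The 10 muscle fibre markers had a median of -0.01 with quantile scaling, and of -0.31, -0.13 and -0.30 under the other 3, where all 10 were lower. The size of the members' difference at 3 months so depends on the scaling, and no scaling here was checked against an outside standard.

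In complex I the differences at 3 months ran from -0.40 for Ndufs4 to 0.61 for the dim Ndufa4l2, with 5 of 34 above 0. A group of 6 core subunits, most of which carry the flavin or iron-sulphur clusters, were all lower in mdx/MMP-2-/- at 3 months by their brightest probe sets. Their median was -0.15, and all 6 lay below the median of all genes under the 3 other scalings too. Ndufv2 read 5790.0 against 7021 in mdx (-0.28), but its other probe sets, also bright, were higher in mdx/MMP-2-/- (0.06 and 0.06). Ndufs1, the largest of the core subunits, read 2021 against 2434 (-0.27). Ndufs8 read 4465 against 5076, Ndufs7 4497 against 4867, Ndufs3 4161 against 4432 and Ndufv1 3971 against 4153. At 1 month the same 6 had been split, with 3 above 0 and 3 below. Ndufs8 then read 4674 in mdx/MMP-2-/- and 5007 in mdx, Ndufs7 3914 and 4410.3, and Ndufs1 2246 and 2260.3. Above 0 lay Ndufs3, at 4089 and 3942, Ndufv2, at 6583 and 6519.7, and Ndufv1, which binds NADH, at 3971 and 3612.

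Ndufs4, an accessory subunit next to the NADH site and a known cause of Leigh-like disease when lost, had the lowest difference of complex I at 3 months. It read 1560.0 in mdx/MMP-2-/- and 2057 in mdx at 3 months, and 1829.7 and 2180.4 at 1 month. Its signal was 1.32-fold lower at 3 months and 1.19-fold lower at 1 month, so both arrays of mdx/MMP-2-/- lay below both of mdx. At 3 months its 2 other probe sets above the floor on all arrays were also lower (-0.31 and -0.15). At 1 month they were split (-0.21 and 0.28).

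Complex II, which also works in the citric acid cycle, was lower in mdx/MMP-2-/- at both ages for each of its 4 genes. Sdha, the flavoprotein, read 3406 against 3926 in mdx at 1 month and 3482 against 3914 at 3 months. Sdhb, the iron-sulphur subunit, read 5716 against 5836 and then 5388 against 5888. Of the membrane anchors, Sdhc read 1815 against 1829.7 and then 1612 against 1825, and Sdhd 2641 against 2735 and then 2431 against 2808. None of these 8 differences reached the counting size. Relative to all genes the 4 were lower at both ages under each other scaling as well, but for 1 of them at 1 month with cyclic loess. Over all members, 32 of 79 (40.5%) were lower in mdx/MMP-2-/- at both ages, against 23.3% of all genes and 27.8% of the bright genes that are no members.

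In complex III the exception at 3 months was Uqcrb (15431 against 14485 in mdx). Its second probe set did not bear this out, at 4321 against 4612 (-0.09). The lowest difference was that of Uqcrc2, a core protein of the matrix side, at 6046 against 7060.2 (-0.22); at 1 month it read 6129 against 6545. At 1 month the extremes were Uqcr10, a small subunit, at 3504 against 3744, and Uqcrq, also small, at 5262 against 4776. At 3 months these 2 read 3555 against 3971 and 5205 against 5520.0. All genotype differences of complex III stayed under the counting size.

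Complex IV had the median closest to 0 at 3 months. Cox5a, a subunit on its matrix side, had the highest difference of the complex IV genes above the floor on all arrays. Its brightest probe set read 12275 in mdx/MMP-2-/- against 10904 in mdx (0.17), after 10763 against 10617 at 1 month. Its other bright probe sets did not bear this out at 3 months, giving 0.05 and -0.01. The muscle forms stayed close: Cox6a2 read 7060.2 in both mdx/MMP-2-/- arrays and 7696 and 7413 in mdx at 1 and 3 months. Cox7a1, the muscle form of subunit VIIa, read 6598 and 6486 in mdx/MMP-2-/- at 1 and 3 months, against 6535 and 7080.0 in mdx. Cox8b, the muscle form of subunit VIII, read 8764 and 8549.9 against 8479 and 9113.

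The forms of most tissues were measured beside them. Cox6a1 read 4672 and 4509.8 in mdx/MMP-2-/- at 1 and 3 months and 4825 and 4171 in mdx, and Cox7a2 read 9569 and 10561 against 10081 and 10617. Cox4i1, the common form of subunit IV, lay between 8887 and 9307 on the 4 arrays, and Cox6b1 between 10242 and 10885. Their rarer partners were close to the floor: Cox4i2, a form tied to low oxygen in lung, read 22.2 in mdx/MMP-2-/- at 3 months, 17.5 at 1 month and at or below the floor in mdx, and the testis form Cox6b2 was above the floor on no array but that of mdx/MMP-2-/- at 3 months (18.4). Ndufa4, named as a complex I subunit and now placed in complex IV, lay between 6736 and 7531. With it moved, the complex IV median at 3 months was -0.07 in place of -0.04. Its paralogue Ndufa4l2 was not moved and is counted with complex I by its symbol.

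In complex V the lowest difference at 3 months was that of Atp5g1, 1 of 3 genes for the same c subunit of the proton-driven ring. It read 4246 in mdx/MMP-2-/- and 5279 in mdx (1.24-fold lower), after 5603 and 5422 at 1 month. Atp5d, the delta subunit of the central stalk, had the highest difference at 3 months, at 6002 against 5927 (0.02). At 1 month its values were 5947 and 5790.0.

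For most members the difference, mdx/MMP-2-/- minus mdx, was lower at 3 months than at 1 month. The 3 month difference minus the 1 month difference had a median of -0.09, with 57 of 79 below 0; below 0 lay 49.5% of all genes and 53.3% of the bright ones, above 0 50.5% and 46.7%. This second difference reached the counting size in 6 members (all genes: 40.9%; bright genes: 15.6%), 1.5-fold in 3 (18% of all genes) and 2-fold in 2, Ndufa4l2 and Cox8c (4.62%). The quantity rests on all 4 arrays, 1 a group, and was not tested.

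In mdx most members read slightly higher at 3 months than at 1 month. The median log2 difference, 3 months minus 1 month, was 0.08 in mdx, with 59 members above 0 and 17 below; above 0 lay 48.0% of all genes and 54.1% of the bright ones, below 0 47.7% and 45.2%. The counting size was reached by 7 members (all genes: 36.3%; bright genes: 22.0%) and 1.5-fold by 2 (13.2% of all genes). In mdx/MMP-2-/- the median was 0.01, with 43 above 0 (all genes: 50%; bright genes: 52.0%) and 34 below (45.8% and 47.6%). There 11 members reached the counting size (all genes: 37.3%; bright genes: 24.3%) and 3 reached 1.5-fold (14.2% of all genes). None reached 2-fold in either genotype (2.53% and 2.71% of all genes). By complex, the medians in mdx and then mdx/MMP-2-/- were 0.12 and 0.04 in complex I, 0.00 and -0.10 in complex II, 0.10 and 0.00 in complex III, 0.04 and 0.01 in complex IV, and 0.06 and 0.01 in complex V. The difference in mdx uses the same mdx array at 3 months as the genotype difference of that age, so the 2 are not independent. Relative to all genes, the member median in mdx was 0.20 with median scaling, 0.14 on the deposited signals and 0.00 with cyclic loess. With cyclic loess the members split almost evenly in mdx, 40 above and 37 below. In mdx/MMP-2-/- the sign of the median turned, to -0.04, -0.05 and -0.14, with 52, 52 and 65 of the 79 lower.

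Single members differed more with age than the complexes did, and several did so alike in both genotypes, whose age differences share no array. Across the 72 members at or above the 90th percentile, these 2 age differences had a Pearson r of 0.76 and a Spearman rho of 0.57, against an r of 0.25 and a rho of 0.39 over all 79. By complex, r was 0.14 over the 34 genes of complex I, -0.28 over the 4 of complex II, 0.66 over the 8 of complex III, -0.12 over the 16 of complex IV and 0.88 over the 17 of complex V (rho 0.32, -0.40, 0.12, 0.17 and 0.78). The 540 other bright genes had an r of 0.62, so a value of this order is common to bright genes here; the points of each set share the 4 arrays and their RNA quality. For the genotype differences at the 2 ages, r was -0.17 and rho 0.09 over the 79, and r was 0.26 and rho 0.25 over the 72.

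**Figure D2:**
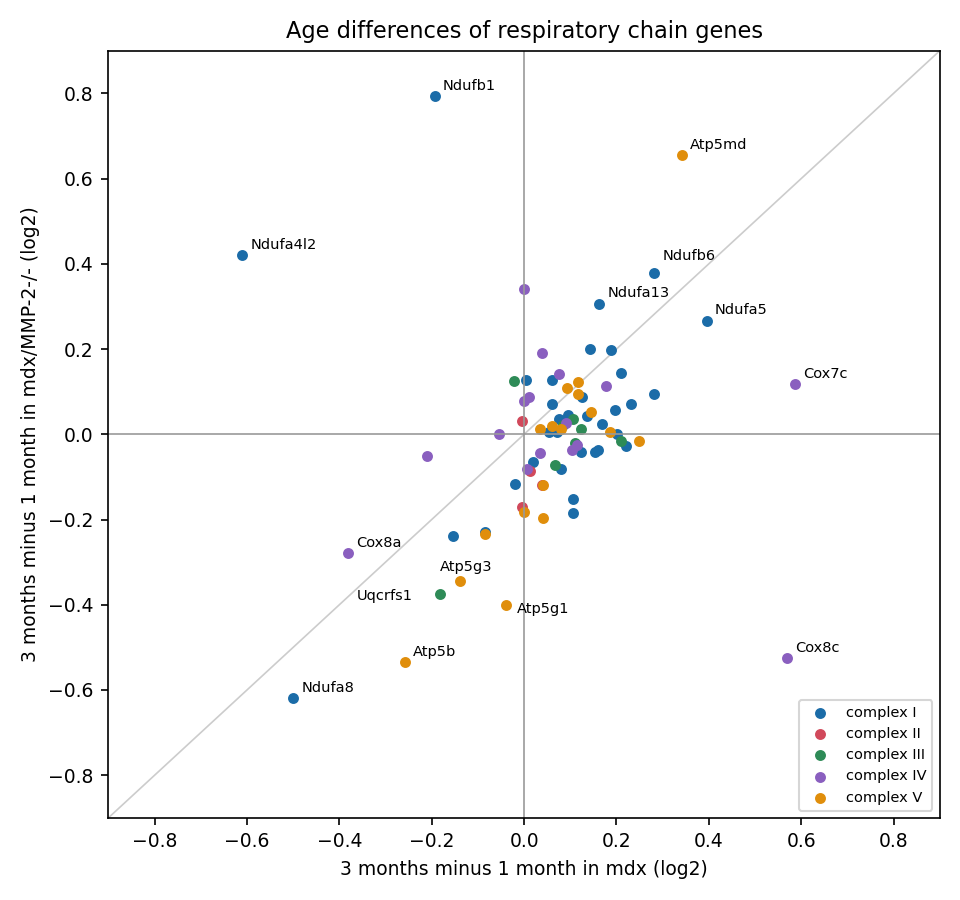
Log2 difference of 3 months minus 1 month in mdx (horizontal) and in mdx/MMP-2-/- (vertical) for the 79 members, coloured by complex; the diagonal marks equal differences. Ndufa8 and Atp5b lie low in both and Atp5md high in both, while the dim genes Ndufa4l2 and Ndufb1 lie at the upper left and Cox8c at the lower right.

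Ndufa8, an accessory complex I subunit that is imported through the disulphide relay of the intermembrane space, had the lowest age difference of the bright members in both genotypes. It read 3523 at 1 month and 2490.0 at 3 months in mdx, and 3555 and 2315 in mdx/MMP-2-/-. The signal was 1.41-fold and 1.54-fold lower, and both arrays at 3 months lay below both at 1 month. It was the only member past the counting size downward with age in both genotypes, as 6.93% of all genes were. Relative to all genes its age difference lay between -0.53 and -0.38 in mdx and between -0.62 and -0.51 in mdx/MMP-2-/- over the 4 scalings.

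Atp5md went the other way. It read 6029.9 and 7641 at 1 and 3 months in mdx, and 4350.1 and 6854 in mdx/MMP-2-/-, 1.27-fold and 1.58-fold higher. Both arrays at 3 months lay above both at 1 month. It was the only member past it upward in both genotypes, as 6.58% of all genes were. Over the 4 scalings its age difference relative to all genes lay between 0.25 and 0.43 in mdx and between 0.50 and 0.66 in mdx/MMP-2-/-.

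Of the catalytic head of the ATP synthase, Atp5b, the beta subunit that holds the catalytic sites, read lower at 3 months. Its signals were 6617 and 5531 in mdx at 1 and 3 months, and 7508 and 5182 in mdx/MMP-2-/-, 1.20-fold and 1.45-fold lower. Its partner Atp5a1, the alpha subunit, was slightly higher at 3 months in both: 5706 and 6183 in mdx, 5693 and 6195 in mdx/MMP-2-/-. By these probe sets the 2 subunits of the same ring had age differences of opposite sign in each genotype. A second bright Atp5a1 probe set did not bear this out: it gave -0.21 in mdx and -0.42 in mdx/MMP-2-/-. A dimmer one gave 0.19 and 0.07. Relative to all genes the Atp5b difference was below 0 under all 4 scalings in both genotypes. That of the first Atp5a1 probe set was above 0 but for cyclic loess in mdx/MMP-2-/- (-0.03).

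The 3 c subunit genes were not alike either. Atp5g3 read 10151 and 9226 in mdx at 1 and 3 months and 10904 and 8588 in mdx/MMP-2-/-, 1.10-fold and 1.27-fold lower. Atp5g1 read 5422 and 5279 in mdx and 5603 and 4246 in mdx/MMP-2-/-, 1.03-fold and 1.32-fold lower. Atp5g2 was higher at 3 months in mdx (2384 and 2712) and level in mdx/MMP-2-/- (2517 and 2527). Relative to all genes Atp5g3 was lower with age under all 4 scalings in both genotypes and Atp5g1 in mdx/MMP-2-/-. In mdx the Atp5g1 difference turned to 0.08 with median scaling and 0.02 on the deposited signals, and in mdx/MMP-2-/- that of Atp5g2 to -0.02 with cyclic loess. The 3 genes encode the same mature protein, and the array reads each gene by its own probe set.

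In complex III, Uqcrfs1, the Rieske iron-sulphur protein, was the lowest with age in both genotypes. It read 5437 and 4794 in mdx at 1 and 3 months, and 5744 and 4430.1 in mdx/MMP-2-/-, 1.13-fold and 1.30-fold lower. By their brightest probe sets the other 7 genes of the complex lay between -0.07 and 0.21 in both. Dimmer probe sets in mdx/MMP-2-/- went lower, to -0.52 for Uqcr10 and -0.25 for Uqcrc2. In complex IV, Cox8a, the common form of subunit VIII, read 649.8 and 499 in mdx and 651 and 536 in mdx/MMP-2-/-, 1.30-fold and 1.21-fold lower. A second Cox8a probe set read 635 and 405 in mdx and 655 and 489.5 in mdx/MMP-2-/-, lower as well. In mdx/MMP-2-/- the Cox8a difference turned to 0.03 with median scaling and 0.09 with none, while relative to all genes it was -0.16 under both.

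Higher with age in complex I were Ndufa5 and Ndufb6, both accessory subunits. Ndufa5 read 3662 and 4815 in mdx at 1 and 3 months, and 3805 and 4577 in mdx/MMP-2-/-, 1.31-fold and 1.20-fold higher. Its second probe set was higher in both genotypes as well (0.20 and 0.19). Ndufb6 read 4123 and 5014 in mdx, and 3646 and 4740.0 in mdx/MMP-2-/-, 1.22-fold and 1.30-fold higher. Its second probe set did not bear this out: it gave 0.02 in mdx and -0.21 in mdx/MMP-2-/-.

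**Figure D3:**
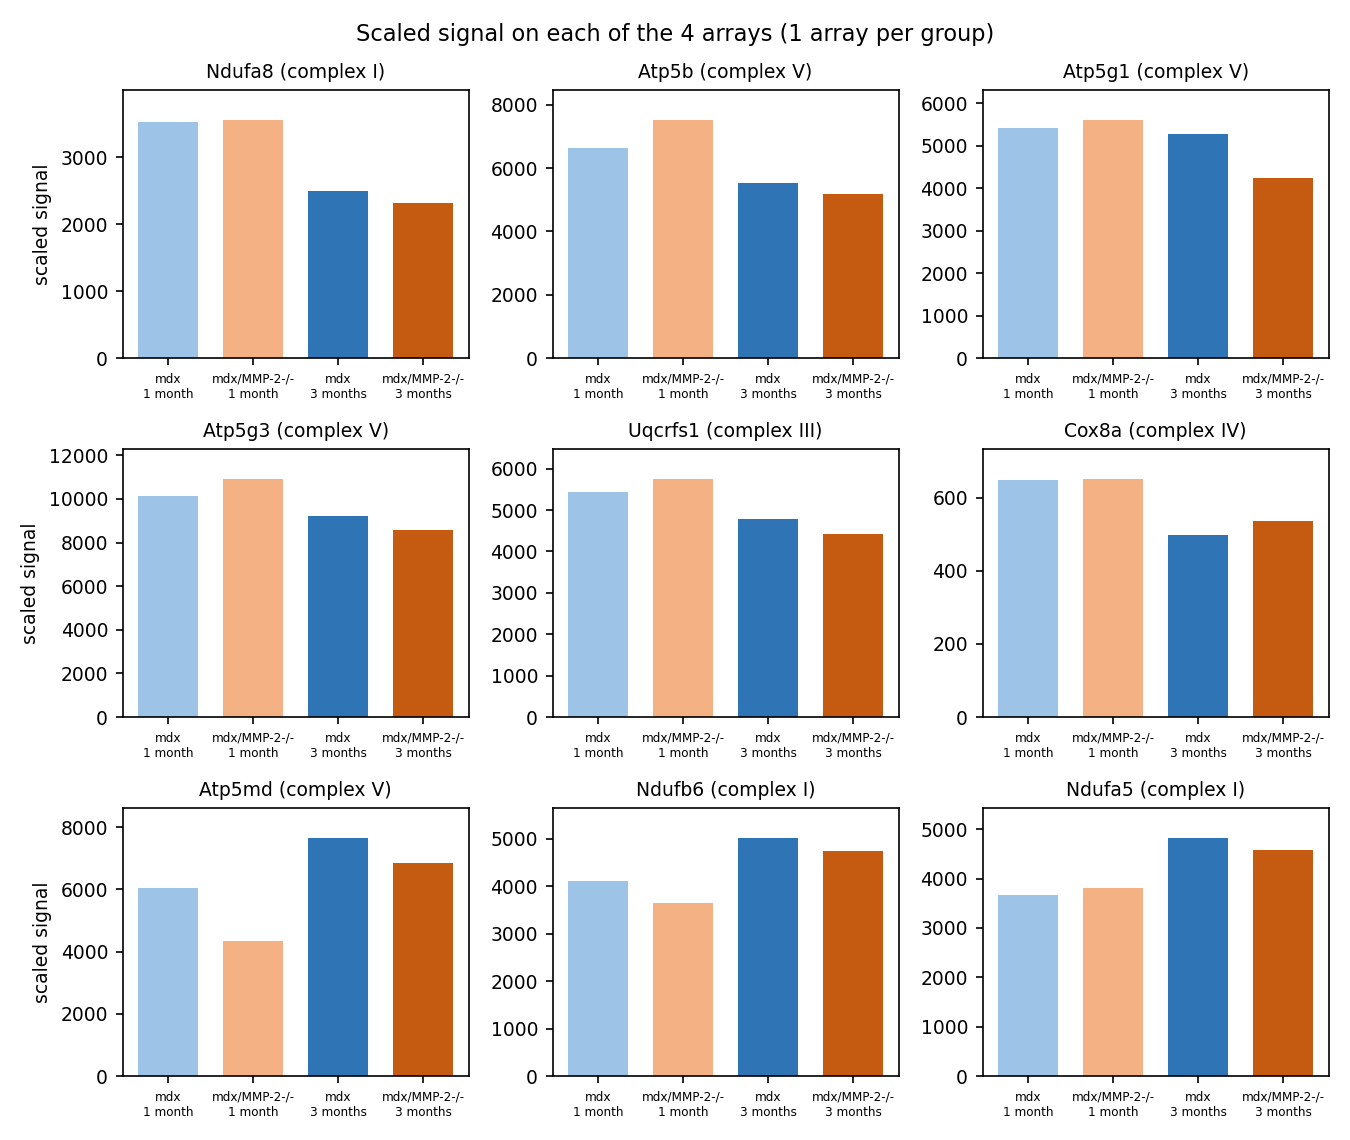
Scaled signal (linear axis from 0) on each of the 4 arrays for 9 members. There is 1 bar an array, with no error bars because each group has 1 array. By the probe sets shown, the age differences of these members had the same sign in both genotypes. For Ndufa8 both bars at 3 months stand below both at 1 month, and for Atp5md both stand above.

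The dim members had the widest differences, of opposite sign in the 2 genotypes for 3 of the 4 named next. Ndufb1 read 101 and 88.0 in mdx at 1 and 3 months and 52.3 and 90.7 in mdx/MMP-2-/-. Ndufa4l2 read 104 and 67.8 in mdx and 77.2 and 103 in mdx/MMP-2-/-. Cox8c read 48.8 and 72.4 in mdx and 90.7 and 63.0 in mdx/MMP-2-/-. The Cox7c probe set, for a subunit that every cell's complex IV holds, read 35.3 and 53.0 in mdx and 40.03 and 43.4 in mdx/MMP-2-/-. The age difference in mdx/MMP-2-/- minus that in mdx was 0.99 for Ndufb1, 1.03 for Ndufa4l2, -1.09 for Cox8c and -0.47 for Cox7c.

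The additive model over the 4 arrays, with a term for genotype and one for age and 1 residual degree of freedom a gene, called none of the 12782 genes for age and so no member (0.00% at an adjusted p under 0.05, limma with Benjamini-Hochberg adjustment). On simulated data of this design the same fit found the right sign of large age changes and called none of them, so the lack of calls says nothing about whether genes differed. At an unadjusted p under 0.05 for age, limma gave 2 of the 79 members, Ndufa8 and Atp5md, and 1763 genes (13.8%). For Ndufa8 the limma age term was -0.56 with a standard error of 0.15, an unadjusted p of 0.017 and an adjusted p of 0.30, and both genotypes showed its direction. For genotype, limma called no gene (0.00%); at an unadjusted p under 0.05 it gave none of the members and 560 genes (4.38%). With a prior variance that follows the signal, limma called 89 genes for age (0.696%) and 1 for genotype (0.00782%), none of them a member, and the lowest adjusted p of a member was 0.060, that of Ndufa8 for age. Under this prior 8 members had an unadjusted p under 0.05 for age in limma (16.5% of all genes did): Atp5b, Atp5md, Cox8a, Ndufa13, Ndufa5, Ndufa8, Ndufb6 and Uqcrfs1. For genotype it gave 3, Atp5md, Ndufa13 and Ndufs4 (4.51% of all genes). Of these, Ndufa13, also known as GRIM-19, read 7681 and 8599 in mdx at 1 and 3 months and 6209 and 7681 in mdx/MMP-2-/-.

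The start sites of 4 of these genes are shown because their brightest probe sets had age differences of the same sign in both genotypes. Atp5md and Ndufb6 read higher at 3 months, and Ndufa8 and Atp5b read lower. The second Ndufb6 probe set did not bear this out (0.02 and -0.21). Of the 79 members, 37 were higher in both genotypes and 12 lower in both (all genes: 30.0% and 28.1%). Each line is the 250 bases before the RefSeq start on build GRCm38.p6, in the direction of transcription, with capitals for matches of the words searched on either strand. These were TGCGCA (part of the NRF1 site), CCGGAAG (the core bound by ETS factors such as GABP), AAGGTCA (the core of oestrogen-related receptors), AAGATGG (YY1) and GGGCGG (SP1, CCGCCC on the other strand).
Atp5md, chr19:47090648-47090897, minus strand: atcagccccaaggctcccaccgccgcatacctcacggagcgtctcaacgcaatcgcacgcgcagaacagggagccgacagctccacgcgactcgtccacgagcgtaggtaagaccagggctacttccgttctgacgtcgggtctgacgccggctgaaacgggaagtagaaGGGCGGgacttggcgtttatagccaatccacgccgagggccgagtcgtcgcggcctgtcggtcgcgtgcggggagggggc
Ndufb6, chr4:40279422-40279671, minus strand: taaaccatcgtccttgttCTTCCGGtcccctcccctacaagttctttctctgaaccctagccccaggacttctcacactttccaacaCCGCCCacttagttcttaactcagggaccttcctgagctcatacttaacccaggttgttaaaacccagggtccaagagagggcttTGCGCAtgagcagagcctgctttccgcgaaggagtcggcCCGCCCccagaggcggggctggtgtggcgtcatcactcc
Ndufa8, chr2:36049339-36049588, minus strand: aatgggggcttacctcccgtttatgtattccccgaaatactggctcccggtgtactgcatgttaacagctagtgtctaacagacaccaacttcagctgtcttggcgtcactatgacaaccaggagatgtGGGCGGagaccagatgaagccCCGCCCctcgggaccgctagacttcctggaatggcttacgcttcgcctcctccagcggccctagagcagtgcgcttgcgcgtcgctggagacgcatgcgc
Atp5b, chr10:128083057-128083306, plus strand: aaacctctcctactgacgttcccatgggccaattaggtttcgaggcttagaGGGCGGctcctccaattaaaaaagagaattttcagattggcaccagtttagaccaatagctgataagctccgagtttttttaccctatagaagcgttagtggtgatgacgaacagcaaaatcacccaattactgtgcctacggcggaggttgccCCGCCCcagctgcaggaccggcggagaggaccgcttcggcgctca
The SP1 word stood in all 4. The NRF1 and ETS words stood in Ndufb6 alone of these, at 78 and 232 bases before the start.

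RefSeq promoters were at hand for 66 of the 81 member genes, 71 in all, as windows of 300 bases (250 before the start and 50 after). The NRF1 word stood in 18 of the 71 (25.4%), against 7.76% of all 32851 promoters and 12.6% of the 13132 promoters of other genes above the floor. The ETS word stood in 17 (23.9%, against 8.86% and 15.9%), the YY1 word in 10 (14.1%, against 6.34% and 6.66%) and the ERR word in 8 (11.3%, against 4.72% and 3.27%). The SP1 word stood in 29 (40.8%), above the 35.7% of all promoters and below the 59.9% of other genes above the floor. Matches of different words were counted separately and could share bases. Promoters of the same gene could overlap, so the same match could be counted again, as was the NRF1 word of Ndufa5. A match describes letters in this window and no binding was measured.

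The rest of the energy pathway was read from lists of other genes. Among 11 electron carriers and energy transfer proteins the median genotype difference was 0.00 at 1 month and -0.11 at 3 months, and the median age difference -0.01 in mdx and -0.18 in mdx/MMP-2-/-. The lowest at 3 months was Etfdh, which passes electrons from fat oxidation to ubiquinone (-0.47), and the highest Slc25a5, an ADP/ATP carrier of dividing cells (0.38); both kept their sign relative to all genes under the 3 other scalings. In the citric acid cycle the median over 17 genes was 0.07 at 1 month and -0.10 at 3 months between genotypes, and -0.06 and -0.26 with age in mdx and mdx/MMP-2-/-. Ogdh, of the oxoglutarate dehydrogenase complex, read 2022 and 1407 in mdx at 1 and 3 months and 2175 and 1268 in mdx/MMP-2-/-. Idh3b, of the NAD-dependent isocitrate dehydrogenase, read 3134 and 4404 in mdx and 3388 and 4734 in mdx/MMP-2-/-. The age differences of Ogdh and Idh3b kept their sign under all 4 scalings; the citric acid cycle median in mdx turned to 0.06 with median scaling. No symbol for a gene of the mitochondrial DNA was found on the annotation used, so the subunits made there were not analysed here.

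Among 43 assembly factors, 35 were lower in mdx/MMP-2-/- than in mdx at 3 months, with a median of -0.17 (33 to 35 below all genes under the 3 other scalings), and 20 were higher and 22 lower at 1 month. Sco2, a copper chaperone of complex IV, had the lowest difference at 3 months. It read 93.8 and 103 in mdx at 1 and 3 months, 63.3 in mdx/MMP-2-/- at 1 month and at or below the floor there at 3 months. The 17 genes of protein import and membrane shape had medians between -0.16 and -0.01 in the 4 differences; relative to all genes those with age turned to 0.12 in mdx and 0.03 in mdx/MMP-2-/- with median scaling.

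Of 21 transcription regulators of mitochondrial genes, 17 were lower in mdx/MMP-2-/- at 3 months (median -0.19; also 17 under each other scaling) and 16 higher with age in mdx (median 0.10). Ppargc1a, the coactivator that drives mitochondrial biogenesis, was at the extremes of 3 of the 4 differences in this list. It read 300.2 and 537 in mdx at 1 and 3 months, and 435 and 346 in mdx/MMP-2-/-. Its genotype difference was 0.53 at 1 month and -0.64 at 3 months, so the order of the genotypes was turned between the ages. With quantile scaling the mdx array at 3 months was the highest for Ppargc1a, as it was for 48 of the 77 members above the floor on all arrays. Its age difference in mdx/MMP-2-/- was -0.33 and changed sign on the deposited signals (0.03).

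**Figure D4:**
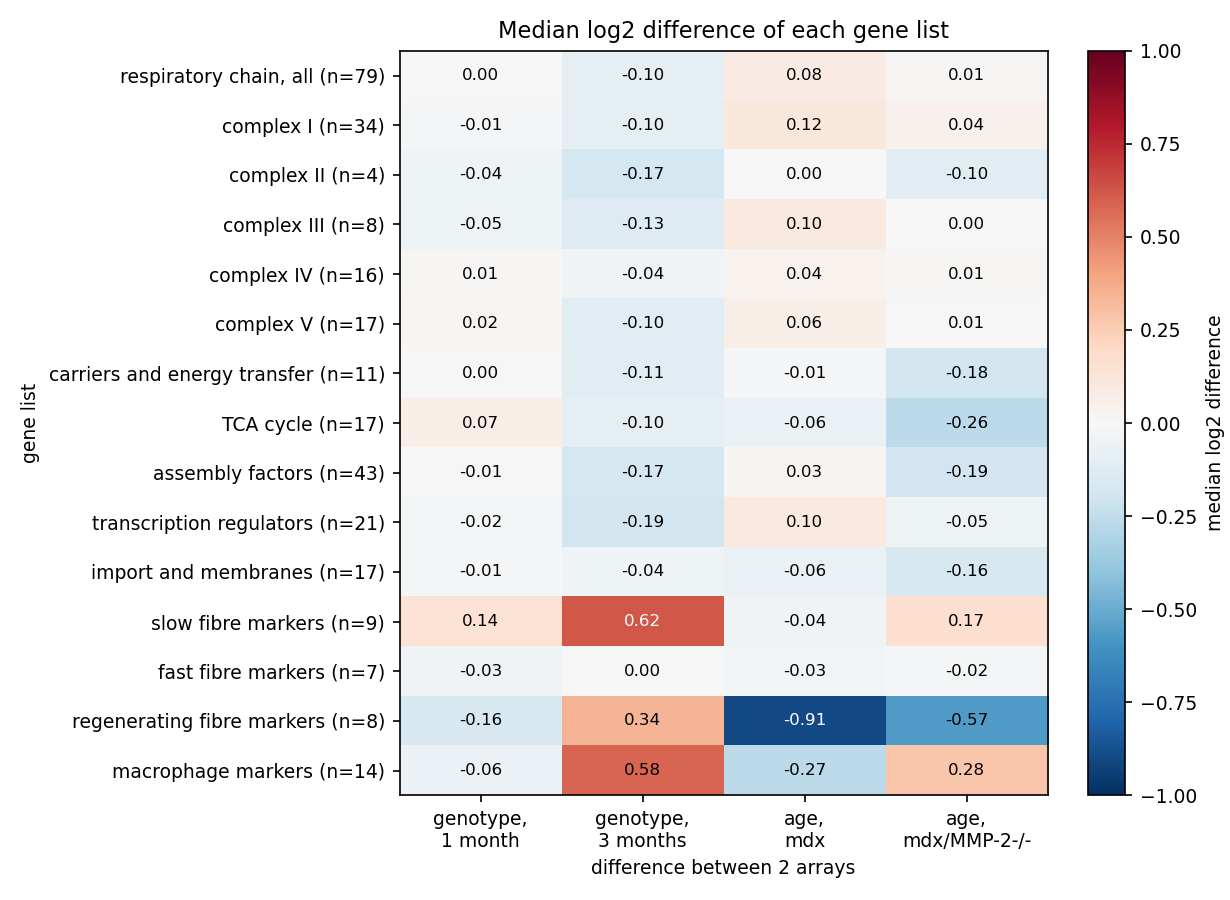
Median log2 difference of each gene list (rows, with the number of genes above the floor) in the 4 differences between 2 arrays (columns); red is higher and blue lower in mdx/MMP-2-/- or at 3 months. The respiratory chain rows stay between -0.17 and 0.12, while slow fibre (0.62) and macrophage markers (0.58) stand high at 3 months and regenerating fibre markers low with age.

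Markers of slow and regenerating fibres and of macrophages had larger medians than the members in some of the same differences, while those of fast fibres lay near 0. At 3 months all 9 slow fibre markers were higher in mdx/MMP-2-/- than in mdx (median 0.62), and their summed signal was 15686 against 11074, after 13862 against 11899 at 1 month. At 1 month they were mixed, with 7 higher and 2 lower (median 0.14) and Tnni1 lowest, 1.47-fold lower. Myh7, the slow myosin, had the highest difference at both ages. It read 409.6 against 159 at 1 month and 602 against 307 at 3 months. The fast fibre markers had medians between -0.03 and 0.00 in the 4 differences, and at 3 months medians of -0.34, -0.15 and -0.32 relative to all genes under median scaling, cyclic loess and no scaling. All 9 slow fibre markers were higher at 3 months under each of these. All 14 macrophage markers were higher in mdx/MMP-2-/- at 3 months (median 0.58), as they were under the 3 other scalings, with summed signals of 10711 there, 7229 in mdx at 3 months, and 9553 and 10064 in mdx/MMP-2-/- and mdx at 1 month. Neutrophil markers summed to 673 in mdx/MMP-2-/- at 3 months and to 109 to 198 on the other arrays, with Ltf and Elane at the floor on all.

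Regenerating fibre markers were lower at 3 months for 8 of 8 in mdx (median -0.91) and 7 of 8 in mdx/MMP-2-/- (median -0.57), and their summed signals at 1 and 3 months were 5480 and 2274, and 4586 and 2783. Endothelial markers summed to 1797 and 1265 in mdx at 1 and 3 months and to 2088 and 1198 in mdx/MMP-2-/-, and fibroblast markers to 40520 and 32029 and to 39464 and 34043. Adipocyte markers, of cells that can hold many mitochondria, summed to 7072 and 6411 in mdx and to 7417 and 5690 in mdx/MMP-2-/-, with Lep at the floor on all arrays. Most of that sum is Fabp4, and the markers did not run one way: at 3 months 3 of 4 were higher in mdx/MMP-2-/- (median 0.35) with Fabp4 lower (-0.19), and at 1 month 3 of 4 were lower (median -0.19) with Fabp4 higher (0.09). Markers of cartilage and bone summed to 609 in mdx at 1 month and to 161 to 220 on the other arrays. The part of these cells, of fibre type and of the Actb ratio in the differences of the members was not tested.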

How the data were processed

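The 4 arrays, 1 a group, were grouped by their labels. The deposited values are intensity: linear MAS5 signals per probe set. The authors made them with Affymetrix Expression Console, as the submitters' processing notes record. The version and any target scaling are not given in the sources used here. Array number, not depth, limits the precision.

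Signals were quantile normalized, set to a floor at the 50th percentile (17.4) and turned to log2. Of 45101 probe sets, 34958 had 1 gene symbol in the platform annotation, which can be old. Each gene took the probe set with the highest mean signal; the choice was the same on the deposited signals for every member. Members and gene lists were chosen with earlier results of these data known. Genes named are every member at an extreme of a complex or in the additive fit, isoform pairs, core complex I, the Sdh genes, and the highest or lowest gene of each pathway list; Atp5a1, Ndufa13, the 72 bright members, the bright comparison genes and the promoters shown were chosen after values were seen. Differences between arrays have no test. The additive fit (genotype and age) used limma 3.58.1 in R 4.3.3 and was tested on simulated data, where it made no calls; other steps used Python 3.11.15, pandas 2.3.3 and matplotlib 3.10.9. Alternatives were 3 other scalings, other floors, folds and probe set choices, and leaving out the brightest genes. Promoter sequences are RefSeq's, build GRCm38.p6.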

Additional observations from a re-analysis of the deposited data

Results flagged for a closer look

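Ndufa4l2, a dim paralogue of Ndufa4 counted here with complex I, had genotype differences of opposite sign at the 2 ages. It was lower in mdx/MMP-2-/- at 1 month (-0.42) and higher at 3 months (0.61), and these differ by 1.03 on the log2 scale. Its age differences were opposite in the same way, -0.61 in mdx and 0.42 in mdx/MMP-2-/-, again 1.03 apart. Cox8c, a dim complex IV gene, had age differences of 0.57 in mdx and -0.53 in mdx/MMP-2-/-, and the second minus the first was -1.09. Each of these rests on 1 array a group, and the difference was not tested. No other member reached 2-fold in this quantity, which 4.62% of all genes did.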

How the results depend on the processing

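No paired analysis was possible because each group has 1 array; no array could be left out for the same reason. With its second probe set the age difference of Ndufb6 in mdx/MMP-2-/- turned to -0.21. A second bright probe set turned the age differences of Atp5a1 to -0.21 in mdx and -0.42 in mdx/MMP-2-/-. Genotype differences at 3 months also turned with other probe sets, to 0.06 for Ndufv2, -0.09 for Uqcrb and -0.01 for Cox5a. Other scalings also turned the sign of age differences of Atp5g1 in mdx, of Atp5a1, Atp5g2, Cox8a and Ppargc1a in mdx/MMP-2-/- and of the member median there. Medians of the members moved by 0.1 or more here: at 3 months -0.26 without scaling and -0.27 with median scaling; with age in mdx 0.20 with median scaling; with age in mdx/MMP-2-/- -0.14 with cyclic loess; the difference between ages of the genotype difference -0.23 without scaling and -0.24 with median scaling. Counts of members past the fold moved by over 1.5 times here. At 1.5-fold they were 2 and 1 between genotypes at 1 and 3 months, 2 and 3 with age in mdx and mdx/MMP-2-/-, and 3 for the difference of differences; at 2-fold 0 in the first 4 and 2 in the last. With median scaling they were 8 and 10 between genotypes and 18 with age in mdx. Without scaling the count at 3 months was 6, with cyclic loess the difference of differences counted 10, with second probe sets the count at 1 month was 1, and without probe sets marked _x or _s that with age in mdx/MMP-2-/- was 17. The additive fit for age gave 2 members at an unadjusted p under 0.05 in limma and 0 adjusted. The cause of these was not tested, apart from the fold itself. Sizes at 3 months and the sign of the median age difference in mdx/MMP-2-/- depend on the scaling. Dim members lie near the floor, and their differences rest on little signal.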
